A study of Populus ussuriensis with 12 samples.

Results

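Aquaporins are the channel proteins through which water, and for some members small solutes such as boric acid, urea or ammonia, cross plant membranes. Their messenger RNA was followed here in leaves of the poplar Populus ussuriensis under drought. The members were all genes whose UniProt description, as the authors' annotated table gives it, contains the word aquaporin in any case. The rule found 53 of 35747 genes, and the name inside each description sorted them into 9 PIP1, 10 PIP2, 16 TIP, 11 NIP and 7 SIP genes. No other value chose them. Gene names below are those of the matched UniProt entries, which come from other plants, and several poplar genes share an entry, so the Potri identifier is given with each name. Reads of closely similar copies may have been split between them in a way the values do not show.

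The 12 libraries formed 4 groups of 3: plants overexpressing Pu-miR172d (OE) after 4 days without water, watered OE plants, wild type (WT) after 4 days without water, and watered WT plants. All were soil-grown plants of 70 days, from which leaves 7 and 8 below the shoot tip were taken. The labels give neither the promoter that drives Pu-miR172d nor the number of transformed lines. They do not say whether libraries of a group came from separate plants, so p-values measure the spread between these libraries, which may be technical. In bulk leaves, fewer cells of a type and less RNA per cell cannot be told apart.

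Plant aquaporins are grouped by sequence, and the groups sit largely in different membranes. PIPs (plasma membrane intrinsic proteins) carry water across the cell surface, and PIP1 proteins of Arabidopsis and maize commonly need a PIP2 partner to reach the plasma membrane and to conduct water well. TIPs (tonoplast intrinsic proteins) lie in the vacuole membrane, NIPs (nodulin-26-like) include the boric acid channels of Arabidopsis, and SIPs (small basic) lie in the endoplasmic reticulum in Arabidopsis. In leaves, PIPs set much of the water permeability of mesophyll and vein cells and are controlled both by transcript level and by phosphorylation and membrane traffic.

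Values are FPKM as deposited, fragment numbers scaled for gene length and library size, so that levels can be compared between genes. Of the 53 aquaporins, 42 had at least 1 FPKM in at least 3 libraries and were tested with limma on log2(FPKM + 1), which understates changes of low genes. The tested members were 6 PIP1, 10 PIP2, 11 TIP, 8 NIP and 7 SIP genes. Adjusted p-values below are limma's, by Benjamini-Hochberg over all 25373 tested genes, with a threshold of 0.05, and fold changes are log2 of drought over watered or of OE over WT. The 11 aquaporins not tested were 3 PIP1 genes of the chromosome 9 cluster described further on, 5 TIPs and 3 NIPs. Their group means did not exceed 1.30 FPKM, reached by TIP1-3 Potri.009G027200 in OE drought, where it had 57 fragments over 3 libraries against 0 in OE watered, a level at least 16.1-fold higher (floor of 3 fragments over the group).

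The spacing of the FPKM values gave library totals of 9682111 to 12131416 fragments. Libraries had 29750 to 30686 genes above 0. Drought moved most of the transcriptome: 62.7% of tested genes passed the threshold in OE and 55.5% in WT. Mesophyll markers, the Rubisco small chain and chlorophyll a-b binding protein genes, fell with drought for 25 of 26 tested in OE and 24 of 26 in WT. Their summed FPKM ranged from 198 to 1135 in OE drought, 26302 to 38103 in OE watered, 2270 to 4038 in WT drought and 38435 to 47002 in WT watered. Xylem markers (12 of 16 tested lower in OE, 15 of 16 in WT) and phloem markers (15 of 15 lower in OE, 13 of 15 in WT) moved the same way. Summed xylem markers ranged from 0.603 to 1.39 FPKM in OE drought, 37.5 to 174 in OE watered, 3.48 to 59.3 in WT drought and 54.8 to 362 in WT watered, and summed phloem markers from 15.5 to 17.5 FPKM in OE drought, 126 to 286 in OE watered, 33.3 to 57.7 in WT drought and 171 to 213 in WT watered. The root markers summed to at most 1.71 FPKM and the single meristem marker to at most 1.53 FPKM in any library, and 5 of the 6 root markers stayed under 1 FPKM in every library. The part of these marker shifts in the aquaporin results was not tested.

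In FPKM as deposited, the aquaporin transcript pool was as large in droughted as in watered WT leaves, but was made of different genes. In OE leaves it was larger in drought. Summed over all 53 genes, OE drought had 5854, 5675 and 6393 FPKM and OE watered 3963, 4463 and 4353 FPKM. WT drought had 4751, 4260 and 4185 FPKM and WT watered 4145, 4387 and 4563 FPKM. The OE drought libraries stood above all others, and the 2 WT groups overlapped. The ratio of drought to watered means was 1.4 in OE and 1.01 in WT. With libraries scaled by median-of-ratios size factors the WT ratio became 0.821, so its direction depends on the scaling, while the OE ratio was 1.53. Under that scaling the WT drought libraries (3842, 3865 and 3716) all lay below the WT watered ones (4375, 4897 and 4646).

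In drought the summed FPKM of the genotypes differed most for PIP2 transcripts. Their summed FPKM averaged 2159 ± 83.2 in OE drought, 1548 ± 73.6 in OE watered, 798 ± 54.9 in WT drought and 1808 ± 77.2 in WT watered leaves (SD, n = 3 each), and no library of a group overlapped another group. PIP1 transcripts averaged 3001 ± 217 FPKM in OE drought, 1868 ± 118 in OE watered, 2699 ± 238 in WT drought and 1786 ± 159 in WT watered leaves, so that they were high in drought in both genotypes. PIP1 genes held 50.2% of the aquaporin FPKM in OE drought, 43.9% in OE watered, 61.4% in WT drought and 40.9% in WT watered leaves. PIP2 genes held 36.2% in OE drought, 36.4% in OE watered, 18.2% in WT drought and 41.5% in WT watered leaves. As deposited, TIP sums were alike within their spread, at 617 ± 128 FPKM in OE drought, 569 ± 86.5 in OE watered, 576 ± 136 in WT drought and 586 ± 18.3 in WT watered leaves. With median-of-ratios scaling they were 657 ± 72.7 in OE drought, 561 ± 87.5 in OE watered, 496 ± 93.4 in WT drought and 624 ± 43.9 in WT watered leaves. Every WT drought library then lay below every OE drought and WT watered library, and overlapped OE watered ones. The minor subfamilies together stayed under 10% of the pool: NIP genes held 1.5% in OE drought, 4.23% in OE watered, 4.61% in WT drought and 2.49% in WT watered leaves, and SIP genes 1.8% in OE drought, 2.18% in OE watered, 2.78% in WT drought and 1.73% in WT watered leaves. Sums over members are descriptions and were not tested. In drought the ratio of OE to WT sums was 2.7 for PIP2 (3.37 with median-of-ratios scaling), and for SIP it was 0.88 as deposited and 1.1 with that scaling. The PIP2 difference lay in PIP2-5 Potri.010G222700, which averaged 1932 FPKM in OE drought and 401 in WT drought. PIP2-4 Potri.008G039600 (49.4 against 131) and PIP2-7 Potri.009G136600 (66 against 193) were lower in OE drought. By limma 4 of the 10 PIP2 genes were higher in OE than in WT in drought and 3 were lower.

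**Figure D1:**
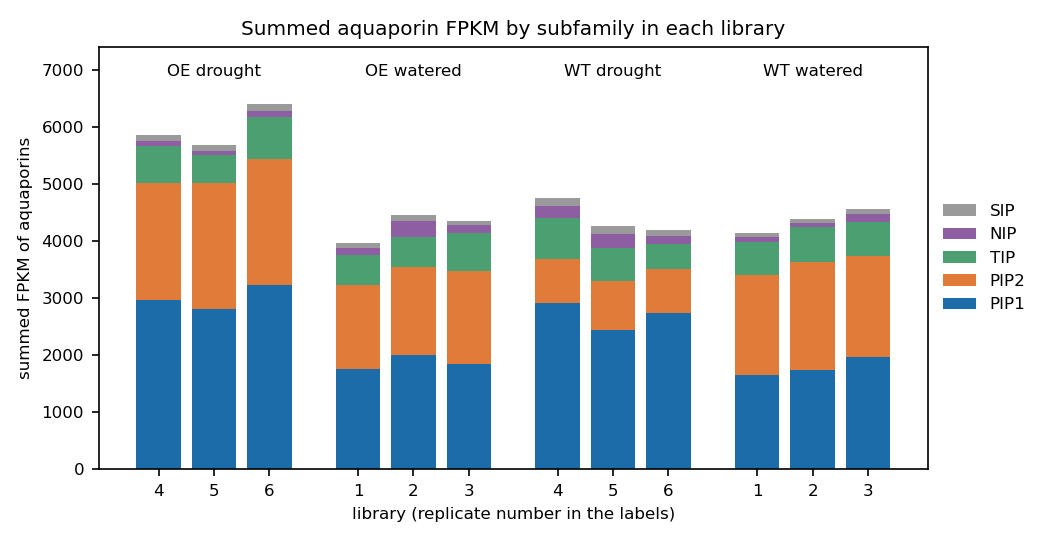
Summed FPKM of the 53 aquaporins (y axis) in each of the 12 libraries (x axis, replicate number in the labels), stacked by subfamily. The 3 OE drought libraries reach 5675 to 6393 FPKM, and the PIP2 part of the WT drought libraries, 758 to 861 FPKM, is the smallest of the 4 groups.

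Most tested aquaporins changed with drought, more of them down than up. In OE leaves 10 rose and 23 fell, 78.6% of the 42, where 62.7% of all tested genes were called (27.7% higher and 34.9% lower). In WT leaves 10 rose and 21 fell, 73.8%, against 55.5% of all tested genes (33.9% higher and 21.6% lower). Every drought library lay above every watered one for 11 members and below for 24 in OE (30.7% above and 39.3% below among all tested genes), and for 10 above and 21 below in WT (38.5% and 24.3%). The median log2 fold change of the 42 was -0.87 in OE and -0.50 in WT, beside -0.13 in OE and 0.25 in WT over all tested genes. With median-of-ratios scaling, which moved the WT median of all genes to 0.00687, the family's medians were -0.80 in OE and -0.75 in WT. Under that scaling 11 aquaporins rose and 23 fell in OE, and 7 rose and 21 fell in WT, while the share of higher among all called genes was 48.7% in place of 44.3% in OE and 45.1% in place of 61% in WT. Crossing the calls, 8 genes rose and 18 fell in both genotypes, 1 fell in OE and rose in WT, and 5 passed in neither.

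**Figure D2:**
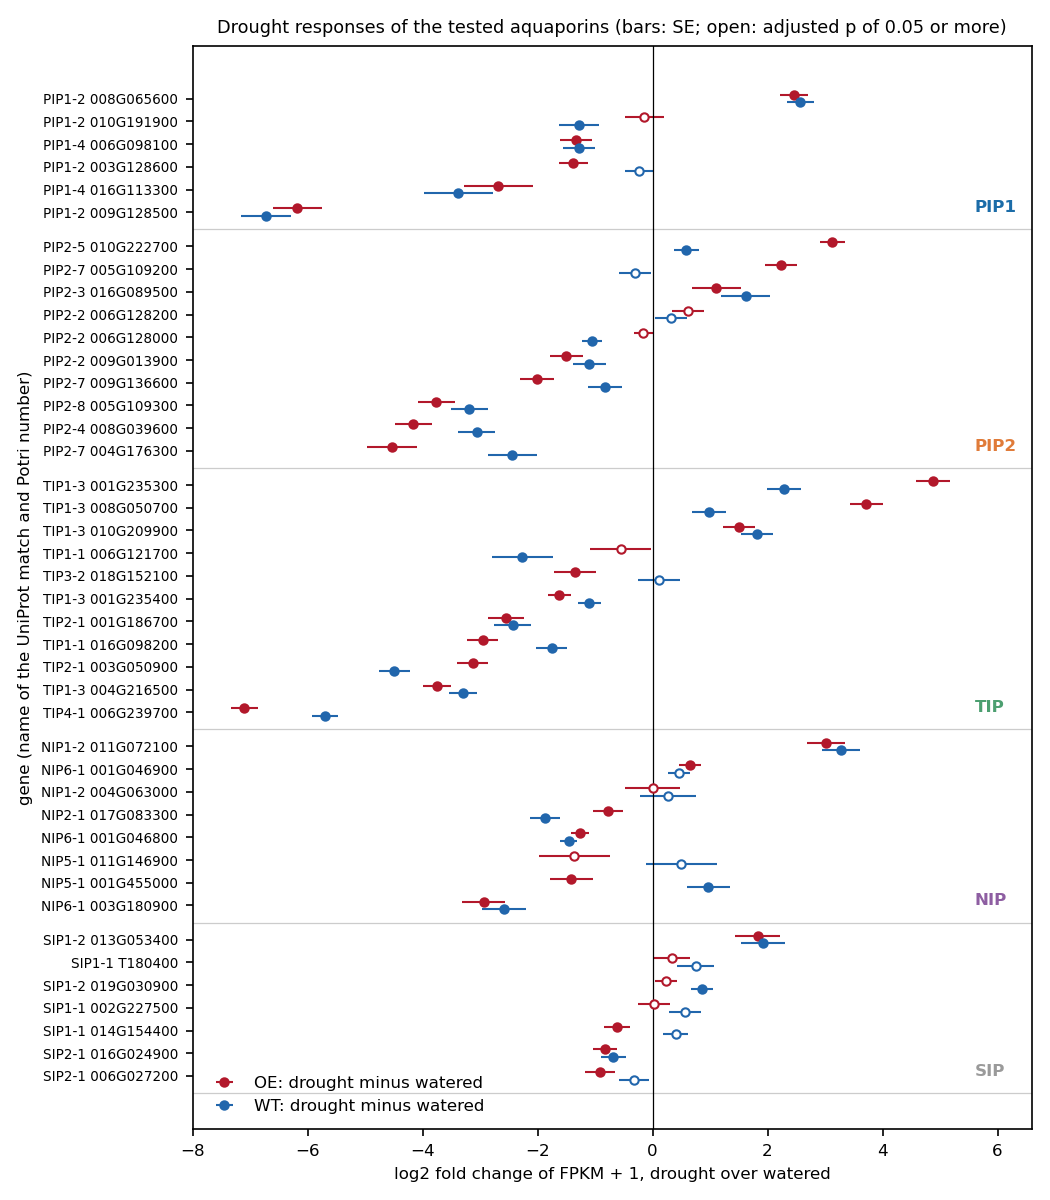
log2 fold change of FPKM + 1, drought over watered (x axis), for the 42 tested aquaporins (y axis) by subfamily, with OE in red above WT in blue. Points are limma estimates, bars their standard errors, and open points have an adjusted p of 0.05 or more. Changes run from -7.10 to 4.88 in OE and from -6.72 to 3.28 in WT, and every subfamily has called genes on both sides of 0 in both genotypes.

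Of the 6 tested PIP1 genes, 1 rose and 4 fell in each genotype, and the gene that rose was the most abundant aquaporin. PIP1-2 Potri.008G065600 (chromosome 8, 3973990 to 3975691, minus strand) had 2216, 2268 and 2359 FPKM in OE drought and 375, 546 and 344 FPKM in OE watered leaves. It had 1969, 1478 and 1597 FPKM in WT drought and 265, 236 and 350 FPKM in WT watered leaves. All drought libraries lay far above all watered ones. The log2 fold change was 2.46 ± 0.24 in OE (SE; adjusted p = 3.9e-06) and 2.57 ± 0.24 in WT (adjusted p = 5.91e-06), with a difference of -0.11 whose 95% interval ran from -0.84 to 0.62. It supplied 38.2% of the mean aquaporin FPKM in OE drought and likewise in WT drought.

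The second PIP1-2 gene, Potri.003G128600 (chromosome 3, 14877768 to 14880445, plus strand), fell in droughted OE leaves. It had 411, 239 and 519 FPKM in OE drought, 973, 948 and 981 in OE watered, 848, 831 and 857 in WT drought and 933, 997 and 1040 in WT watered leaves. The OE drought libraries stood well below all others, and the WT drought libraries only just below the WT watered ones. The OE response was -1.38 ± 0.25 (adjusted p = 0.000537) and the WT response -0.23 ± 0.25 (adjusted p = 0.465). The test of the difference between these responses, -1.15 with a 95% interval from -1.94 to -0.37, missed the threshold (adjusted p = 0.0506).

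Another abundant PIP1-2 gene, Potri.010G191900, was picked out after its values were seen, because its genotypes stood the other way round. It had 329, 299 and 354 FPKM in OE drought, 347, 455 and 294 in OE watered, 94.3, 131 and 288 in WT drought and 348, 342 and 433 in WT watered leaves. The OE groups overlapped, and the WT drought libraries lay below the watered ones with a wide spread of their own. The OE response was -0.14 ± 0.34 (adjusted p = 0.741) and the WT response -1.28 ± 0.34 (adjusted p = 0.00741), and their difference, 1.14 with a 95% interval from 0.10 to 2.18, missed the threshold (adjusted p = 0.119).

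PIP1-2 Potri.009G128500 (chromosome 9, 10529888 to 10531833, minus strand) nearly vanished from droughted leaves. It had 0 fragments in the 3 OE drought libraries against 50, 38 and 189 FPKM in OE watered leaves, a level at least 1636-fold lower. WT drought leaves had 0, 0.115 and 0.0558 FPKM, 3 fragments in all, against 96.18, 122.5 and 113.1 FPKM in WT watered leaves, a watered-to-drought ratio of 1940 with an exact Poisson interval from 663 to 9409 that covers counting error alone. No drought library came near a watered one. It is the only tested gene of a cluster of 4 PIP1 genes between 10510764 and 10531833 on chromosome 9. Its neighbours Potri.009G127900, Potri.009G128000 and Potri.009G128200 stayed at or below 2.15 FPKM in every library.

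The PIP1-4 genes were minor and fell in both genotypes. Potri.016G113300 had 2.3, 0.366 and 2.65 FPKM in OE drought against 16, 6.87 and 31.4 in OE watered leaves, and 0.469, 0.832 and 4.09 FPKM in WT drought against 14.7, 37.5 and 24.7 in WT watered leaves. Drought and watered libraries did not overlap in either genotype, although each group was spread widely. The change was -2.68 ± 0.60 in OE (adjusted p = 0.00207) and -3.38 ± 0.60 in WT (adjusted p = 0.000628). Potri.006G098100, at most 3.64 FPKM in any library, also fell in both.

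Among the 10 PIP2 genes, all tested, 3 rose and 5 fell in OE and 2 rose and 6 fell in WT. PIP2-5 Potri.010G222700 (chromosome 10, 20694199 to 20697409, minus strand) stood next to PIP1-2 Potri.008G065600 at the top of the OE drought pool. It had 1828, 2048 and 1919 FPKM in OE drought, 182, 246 and 235 in OE watered, 412, 474 and 318 in WT drought and 224, 280 and 291 in WT watered leaves. The OE drought libraries exceeded every other library several times over, while WT drought lay only just above WT watered. The response was 3.13 ± 0.21 in OE (adjusted p = 2.87e-07), against 0.59 ± 0.21 in WT (adjusted p = 0.0319), and the difference between them was 2.55 ± 0.30 (adjusted p = 0.00106). The WT call ended with median-of-ratios scaling (0.29, adjusted p = 0.287), without WT drought library 4 or 5 (adjusted p = 0.0798 and 0.118) and without WT watered library 1 or 2 (0.12 and 0.0589). Fitting the 2 WT groups alone ended it too (0.59, adjusted p = 0.0607). The OE response, the difference and the drought contrast of the genotypes passed under every alternative run. Together with PIP1-2 Potri.008G065600 it made up 70.5% of the aquaporin FPKM of OE drought leaves.

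The leading PIP2 gene of watered leaves, PIP2-4 Potri.008G039600 (chromosome 8, 2249309 to 2253056, plus strand), went the other way. It had 56, 28.1 and 64.2 FPKM in OE drought, 861, 920 and 769 in OE watered, 101, 98.9 and 193 in WT drought and 1074, 1113 and 955 in WT watered leaves. Drought libraries of both genotypes were far below watered ones, those of OE below those of WT. The responses were -4.16 ± 0.32 in OE (adjusted p = 7.65e-07) and -3.06 ± 0.32 in WT (adjusted p = 1.47e-05). It was the most abundant aquaporin of watered WT leaves, with 24% of the mean pool.

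The 3 genes that match the PIP2-7 entry did not move as a unit. Potri.005G109200 had 18.5, 23.6 and 18.7 FPKM in OE drought, 2.25, 3.83 and 4.76 in OE watered, 2.07, 2.06 and 4.31 in WT drought and 2.56, 3.66 and 4.66 in WT watered leaves. Only OE drought was high, and the other groups overlapped. It rose by 2.24 ± 0.28 in OE (adjusted p = 2.91e-05), with -0.30 ± 0.28 in WT (adjusted p = 0.369) and a difference of 2.54 ± 0.39 (adjusted p = 0.00381).

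Potri.004G176300, of the same entry, had 1.48, 1.06 and 0.686 FPKM in OE drought, 45.5, 29.2 and 75.2 in OE watered, 17.3, 6.3 and 4.35 in WT drought and 34.8, 53.9 and 57.6 in WT watered leaves. Drought libraries lay below watered ones in both genotypes, and OE drought lay lowest. It fell by 4.53 ± 0.43 in OE (adjusted p = 3.77e-06) and fell by 2.44 ± 0.43 in WT (adjusted p = 0.000639). The more abundant Potri.009G136600 had 68.7, 44 and 85.2 FPKM in OE drought, 247, 183 and 387 in OE watered, 198, 220 and 161 in WT drought and 310, 361 and 357 in WT watered leaves. Within each genotype drought and watered libraries did not overlap. It fell by 2.01 ± 0.29 in OE (adjusted p = 9.34e-05) and fell by 0.83 ± 0.29 in WT (adjusted p = 0.0292); leaving out WT drought library 4 or 6 or WT watered library 2 or 3 ended the WT call (adjusted p between 0.057 and 0.0804).

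Potri.005G109200 has a close neighbour on chromosome 5, PIP2-8 Potri.005G109300, and the pair spans 8388392 to 8395653 on the minus strand. The neighbour had 0.705, 0.938 and 0.587 FPKM in OE drought against 21.7, 12.9 and 40.6 in OE watered leaves, and 2.34, 2.73 and 1.61 in WT drought against 23.9, 30.5 and 30.3 in WT watered leaves. It was low in every drought library. It fell by 3.76 ± 0.32 in OE (adjusted p = 1.51e-06) and fell by 3.19 ± 0.32 in WT (adjusted p = 1.07e-05), while Potri.005G109200 rose in OE.

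PIP2-3 Potri.016G089500 had 15.9, 7.93 and 18.2 FPKM in OE drought, 4.97, 6.4 and 5.49 in OE watered, 7.34, 14 and 21.4 in WT drought and 2.09, 2.62 and 7.59 in WT watered leaves. The OE groups were separate and the WT groups overlapped. It rose by 1.11 ± 0.43 in OE (adjusted p = 0.0409) and by 1.62 ± 0.43 in WT (adjusted p = 0.00787), and the OE call ended without any of 6 libraries, OE drought 4 or 6, OE watered 1, 2 or 3, or WT drought 5 (adjusted p up to 0.133). That call also ended without a filter (adjusted p = 0.0574).

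PIP2-2 Potri.006G128000 had 5.15, 4.87 and 6.74 FPKM in OE drought, 6.18, 6.91 and 5.85 in OE watered, 2.36, 1.91 and 2.85 in WT drought and 6.2, 5.21 and 6.53 in WT watered leaves. Only WT drought was low. The response was -0.16 ± 0.17 in OE (adjusted p = 0.445) and -1.05 ± 0.17 in WT (adjusted p = 0.000382). The other two PIP2-2 genes were Potri.009G013900, which fell in both genotypes, and Potri.006G128200, which passed in neither.

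Of the 11 tested TIP genes 3 rose and 7 fell in each genotype. All 3 that rose match the TIP1-3 entry, a water and urea channel of Arabidopsis pollen. Of the 5 tested genes of that entry, these 3 rose in both genotypes and the other 2 fell in both. The most abundant, Potri.010G209900, had 361, 244 and 428 FPKM in OE drought, 107, 104 and 149 in OE watered, 615, 451 and 316 in WT drought and 111, 125 and 140 in WT watered leaves. Drought lay above watered in both genotypes, and the drought groups overlapped. The changes were 1.50 ± 0.28 in OE (adjusted p = 0.000567) and 1.82 ± 0.28 in WT (adjusted p = 0.000218).

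TIP1-3 Potri.008G050700 (chromosome 8, 2995343 to 2997654, plus strand) had 141, 145 and 150 FPKM in OE drought, 7.47, 12.4 and 11 in OE watered, 42.4, 40.9 and 23.3 in WT drought and 12.1, 15.1 and 26.5 in WT watered leaves. OE drought was far above the rest, and the WT groups overlapped. It rose by 3.72 ± 0.29 in OE (adjusted p = 9.25e-07) and by 0.98 ± 0.29 in WT (adjusted p = 0.0144), a difference of 2.75 ± 0.41 (adjusted p = 0.00343). The WT call ended with median-of-ratios scaling and without WT drought library 4 or 5 or WT watered library 1 or 2 (adjusted p between 0.0522 and 0.0645).

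TIP1-3 Potri.001G235300 (chromosome 1, 24715143 to 24716672, plus strand) had 43.2, 50.9 and 40.4 FPKM in OE drought, 0.212, 1.23 and 0.386 in OE watered, 8.05, 7.25 and 7.92 in WT drought and 0.501, 0.294 and 1.95 in WT watered leaves. It was near the detection limit in watered leaves of both genotypes, with OE drought on top. It rose by 4.88 ± 0.30 in OE (adjusted p = 1.81e-07) and by 2.29 ± 0.30 in WT (adjusted p = 8.1e-05), a difference of 2.59 ± 0.43 (adjusted p = 0.00508). It overlaps Potri.001G235400 on the opposite strand, a second TIP1-3 gene, named after its values were seen, that fell by 1.62 ± 0.20 in OE (adjusted p = 2.22e-05) and fell by 1.10 ± 0.20 in WT (adjusted p = 0.000667). The library kit does not mark strand, so reads from the shared stretch cannot be told apart.

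TIP4-1 Potri.006G239700 (chromosome 6, 24878005 to 24879868, minus strand), a relative of urea-conducting tonoplast channels of Arabidopsis, was at or near 0 in droughted leaves. It had 0 fragments in all OE drought libraries against 115, 196 and 113 FPKM in OE watered leaves, a level at least 1814-fold lower. WT drought leaves had 0.318, 0.238 and 0.308 FPKM against 64.5, 51.2 and 86.5 FPKM in WT watered leaves. Watered and drought libraries were thus fully apart, and OE watered leaves lay above WT watered ones. The fitted changes were -7.10 ± 0.23 in OE (adjusted p = 5.12e-09) and -5.70 ± 0.23 in WT (adjusted p = 2.7e-08).

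The remaining tested TIPs were lower in drought or passed in 1 genotype. TIP1-3 Potri.004G216500 had 3.82, 2.98 and 5.27 FPKM in OE drought against 70.8, 47.2 and 84.5 in OE watered leaves, and 6.61, 5.79 and 6.01 in WT drought against 75.4, 82.1 and 53.8 in WT watered leaves. It fell by 3.75 ± 0.24 in OE (adjusted p = 2.18e-07) and fell by 3.30 ± 0.24 in WT (adjusted p = 1.06e-06), with no overlap between drought and watered. TIP1-1 Potri.016G098200 had 10.4, 5.52 and 11.3 FPKM in OE drought, 75.6, 63.8 and 84.2 in OE watered, 15.6, 25.4 and 23.5 in WT drought and 93.5, 71.9 and 58.2 in WT watered leaves. It was lowest in OE drought, and fell by 2.95 ± 0.27 in OE (adjusted p = 2.77e-06) and fell by 1.75 ± 0.27 in WT (adjusted p = 0.000251).

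TIP2-1 Potri.003G050900, whose Arabidopsis namesake conducts ammonia as well as water, had 0.754, 0.424 and 1.12 FPKM in OE drought, 15, 8.89 and 21.2 in OE watered, 0.604, 0.602 and 1.05 in WT drought and 35.6, 45.6 and 33.8 in WT watered leaves. The drought groups overlapped near 1 FPKM, and the watered groups were apart, OE below WT. It fell by 3.13 ± 0.27 in OE (adjusted p = 1.99e-06) and fell by 4.49 ± 0.27 in WT (adjusted p = 3.24e-07). The other TIP2-1 gene, Potri.001G186700, fell in both genotypes as well.

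TIP1-1 Potri.006G121700 had 64.3, 22.9 and 84 FPKM in OE drought, 72.2, 38.7 and 141 in OE watered, 15.5, 22.6 and 44.1 in WT drought and 110.1, 145.2 and 121.4 in WT watered leaves. The OE groups overlapped widely and the WT groups did not. The change was -0.55 ± 0.53 in OE (adjusted p = 0.39) and -2.27 ± 0.53 in WT (adjusted p = 0.00371), and the difference of 1.73 missed the threshold (adjusted p = 0.131).

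Among the 8 tested NIP genes 2 rose and 4 fell in OE, and 2 rose and 3 fell in WT. NIP5-1 Potri.001G455000 (chromosome 1, 48962387 to 48967421, plus strand), named for the boric acid uptake channel of Arabidopsis roots, was the most abundant. It had 56.2, 37.9 and 63.2 FPKM in OE drought, 105, 234 and 107 in OE watered, 161, 207 and 113 in WT drought and 70, 58.17 and 120.8 in WT watered leaves. OE drought lay below OE watered, whereas WT drought lay mostly above WT watered with some overlap. It fell by 1.41 ± 0.37 in OE (adjusted p = 0.00553) and rose by 0.97 ± 0.37 in WT (adjusted p = 0.0416), with a difference of -2.38 ± 0.52 (adjusted p = 0.0157). It was the sole aquaporin called in opposite directions. The WT rise ended without OE drought library 4, WT drought library 4 or 5 or WT watered library 1 or 2 (adjusted p between 0.0544 and 0.155), without a filter (0.0589) and with median-of-ratios scaling (0.68, adjusted p = 0.114).

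The second NIP5-1 gene, Potri.011G146900, was at 3.69, 3.14 and 4.7 FPKM in OE drought and 6.69, 28.2 and 7.31 FPKM in OE watered leaves, and at 9.21, 9.12 and 1.43 FPKM in WT drought and 5.53, 1.4 and 4.67 FPKM in WT watered leaves. Its drought contrasts did not pass (adjusted p = 0.0757 in OE and 0.514 in WT). It was chosen after its values were seen, as the paralogue of Potri.001G455000.

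NIP1-2 Potri.011G072100 had 25.8, 18.1 and 34.3 FPKM in OE drought, 1.18, 3.61 and 2.45 in OE watered, 32.8, 23.8 and 15.4 in WT drought and 1.26, 1.3 and 1.86 in WT watered leaves. Drought lay above watered everywhere, and the drought groups overlapped. It rose by 3.01 ± 0.33 in OE (adjusted p = 1e-05) and by 3.28 ± 0.33 in WT (adjusted p = 1.04e-05). The other NIP1-2 gene, Potri.004G063000, passed in neither genotype.

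The NIP6-1 genes, whose Arabidopsis namesake moves boric acid into young shoot tissue, were low. Potri.003G180900 had 0.233, 0.0609 and 0.119 FPKM in OE drought against 5.67, 12.9 and 6.06 in OE watered leaves, and 0.182, 0.424 and 0.176 FPKM in WT drought against 10.7, 2.82 and 8.39 in WT watered leaves. It fell by 2.94 ± 0.38 in OE (adjusted p = 4.21e-05) and fell by 2.58 ± 0.38 in WT (adjusted p = 0.000191), with no overlap. The other two, Potri.001G046800 and Potri.001G046900, overlap on opposite strands of chromosome 1 between 3490157 and 3496275. The first fell in both genotypes, and the second, with 3.14, 3.94 and 3.07 FPKM in OE drought against 1.28, 2.02 and 2.1 in OE watered leaves, rose in OE by 0.65 ± 0.19 (adjusted p = 0.00933) with 0.46 ± 0.19 in WT (adjusted p = 0.0551). NIP2-1 Potri.017G083300, which overlaps Potri.017G083200, had 0 fragments in all 6 drought libraries, a level at least 12.6-fold lower than OE watered and at least 43.2-fold lower than WT watered leaves. Its watered levels were 1.54, 0.229 and 0.612 FPKM in OE and 1.92, 4.01 and 2.32 FPKM in WT.

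Of 7 tested SIP genes, 1 rose and 3 fell in OE, and 2 rose and 1 fell in WT. SIP1-2 Potri.013G053400 had 36.8, 40.9 and 37.4 FPKM in OE drought, 9.5, 17.1 and 6.11 in OE watered, 41.6, 41.2 and 14.9 in WT drought and 6.56, 5.68 and 9.31 in WT watered leaves. Drought lay above watered in both genotypes. It rose by 1.83 ± 0.39 in OE (adjusted p = 0.00157) and by 1.92 ± 0.39 in WT (adjusted p = 0.00156).

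The other SIP1-2 gene, Potri.019G030900, had 32.3, 29.3 and 36.3 FPKM in OE drought, 29.7, 34.6 and 20.3 in OE watered, 33.1, 40.5 and 39.9 in WT drought and 19.8, 18.9 and 22.6 in WT watered leaves. Its OE groups overlapped and its WT groups did not. The response was 0.23 ± 0.19 in OE (adjusted p = 0.308) and 0.86 ± 0.19 in WT (adjusted p = 0.00263). SIP2-1 Potri.016G024900 had 8.64, 11.9 and 8.72 FPKM in OE drought, 17.9, 18.6 and 16.9 in OE watered, 10.1, 9.06 and 15.5 in WT drought and 15.3, 18.3 and 23.3 in WT watered leaves. WT libraries overlapped slightly. It fell by 0.82 ± 0.21 in OE (adjusted p = 0.00539) and fell by 0.68 ± 0.21 in WT (adjusted p = 0.0174), and the WT call ended without WT drought library 4 or 5 or WT watered library 3 (adjusted p between 0.0581 and 0.076). SIP2-1 Potri.006G027200 had 1.58, 1.66 and 1.61 FPKM in OE drought, 2.96, 3.04 and 6.47 in OE watered, 2.97, 4.03 and 1.92 in WT drought and 3.46, 4.02 and 4.07 in WT watered leaves, and fell in OE by 0.91 ± 0.26 (adjusted p = 0.00934). Its WT groups overlapped.

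**Figure D3:**
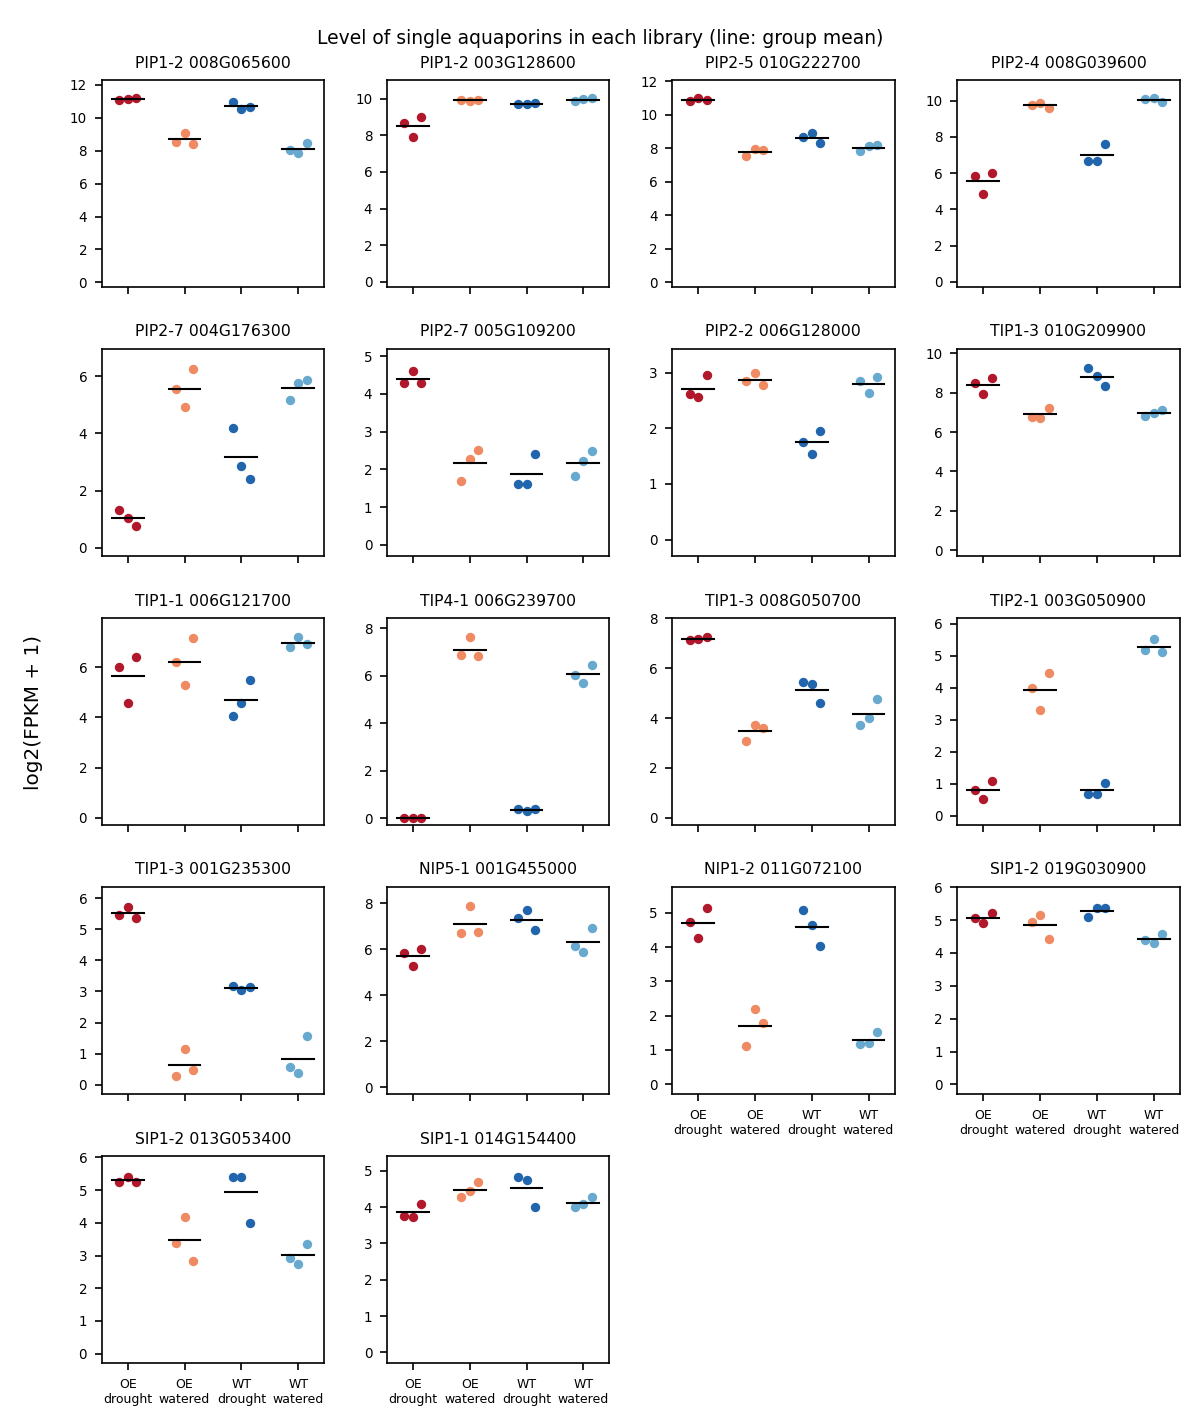
log2(FPKM + 1) in each library (points) and the group mean (line) for 18 aquaporins, the 2 most abundant of each subfamily and those whose drought response differed between genotypes, with groups on the x axis. In PIP2-5 Potri.010G222700, PIP2-7 Potri.005G109200 and both TIP1-3 genes Potri.008G050700 and Potri.001G235300 the OE drought points stand above all others.

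In watered leaves no aquaporin passed the test between OE and WT. limma called 0 of the 42 higher and 0 lower (background 0.138%, 0.0985% higher and 0.0394% lower), and voom on recovered fragments also called 0. By limma's unadjusted p under 0.05 there were 8 of the 42, beside 2253 of all 25373 tested genes. All 3 OE libraries lay above all WT libraries for 3 members and below for 5, where 12.4% and 5.14% of all tested genes did so. The median OE to WT difference was -0.02 for the family and 0.05 for all tested genes. The widest differences were 1.46 for NIP5-1 Potri.011G146900 (adjusted p = 0.52) and -1.36 for TIP2-1 Potri.003G050900 (adjusted p = 0.122), both picked after their values were seen.

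In drought 7 aquaporins were higher and 7 lower in OE than in WT. That is 33.3% of the 42, where 29.4% of all tested genes were called (9.19% higher and 20.2% lower). Both shares depended on the libraries: without WT drought library 4 the family had 11 calls and 16.3% of all genes were called, and without OE drought library 5 it had 11 calls against 17.1%. On the drought libraries alone the family had 12 calls and 13% of all genes were called. With median-of-ratios scaling 9 were higher and 6 lower, and the share of higher among all called genes was 60.4% in place of 31.3%. All OE libraries lay above all WT libraries for 8 members and below for 12, where 13.2% of all tested genes lay above and 31.6% below. Of the 26 mesophyll markers 23 were lower in OE drought than in WT drought, and of the 3 epidermis markers 3 were lower; their part in these differences was not tested. The PIP2 genes supplied 4 of the higher and 3 of the lower calls, PIP1 1 and 1, TIP 2 and 1, NIP 0 and 1, and SIP 0 and 1. The higher genes were PIP2-7 Potri.005G109200 (2.52 ± 0.28, adjusted p = 0.000204), TIP1-3 Potri.001G235300 (2.39 ± 0.30, adjusted p = 0.00042), PIP2-5 Potri.010G222700 (2.28 ± 0.21, adjusted p = 8.08e-05), TIP1-3 Potri.008G050700 (2.04 ± 0.29, adjusted p = 0.000915) and PIP2-2 Potri.006G128000 (0.96 ± 0.17, adjusted p = 0.00297), along with Potri.010G191900 and PIP2-2 Potri.006G128200 at adjusted p = 0.0318 and 0.0333.

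The lower genes began with PIP2-7 Potri.004G176300 (-2.13 ± 0.43, adjusted p = 0.00542) and NIP5-1 Potri.001G455000 (-1.58 ± 0.37, adjusted p = 0.0097). PIP2-7 Potri.009G136600 (-1.57 ± 0.29, adjusted p = 0.00347), PIP2-4 Potri.008G039600 (-1.40 ± 0.32, adjusted p = 0.00885), PIP1-2 Potri.003G128600 (-1.19 ± 0.25, adjusted p = 0.00676) and TIP1-1 Potri.016G098200 (-1.18 ± 0.27, adjusted p = 0.00888) followed, and SIP1-1 Potri.014G154400 was the last (adjusted p = 0.0374). Fitted on the 6 drought libraries alone, the calls of Potri.003G128600 and Potri.008G039600 missed the threshold (adjusted p = 0.0502 and 0.0588). Potri.010G191900, Potri.006G128200 and Potri.014G154400 were added after their values were seen. All 3 calls ended without OE drought library 4 or 5 or WT drought library 4 or 5, those of Potri.010G191900 and Potri.006G128200 also without OE drought library 6, and that of Potri.014G154400 also without WT watered library 1 or 2. The adjusted p without 1 library reached 0.127 for Potri.010G191900, 0.105 for Potri.006G128200 and 0.14 for Potri.014G154400. The call of Potri.010G191900 also ended on the drought libraries alone (adjusted p = 0.102). That of Potri.014G154400 ended there too (0.111), without a filter (0.0523) and with median-of-ratios scaling (-0.38, adjusted p = 0.186).

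The drought response itself differed between genotypes for 10 aquaporins, 6 with a higher and 4 with a lower log2 response in OE. That is 23.8% of the 42, against 14.8% of all tested genes (4.54% higher and 10.2% lower). Leaving out 1 library gave between 5 calls with 5.76% of all genes (without WT watered library 2) and 14 calls with 26.4% (without WT drought library 6). The share of all genes moved by over 1.5 times without any library except OE drought 6 and OE watered 2 and 3. With median-of-ratios scaling the members' counts were 6 and 2, and the share of higher among all called genes was 66.2% in place of 30.8%. The median difference of the family was -0.30 as deposited and 0.06 with that scaling, so it gives no direction. The 6 were 3 PIP2 and 3 TIP genes, and the 4 were a PIP2, a TIP, a NIP and a SIP gene. No PIP1 gene was called.

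**Figure D4:**
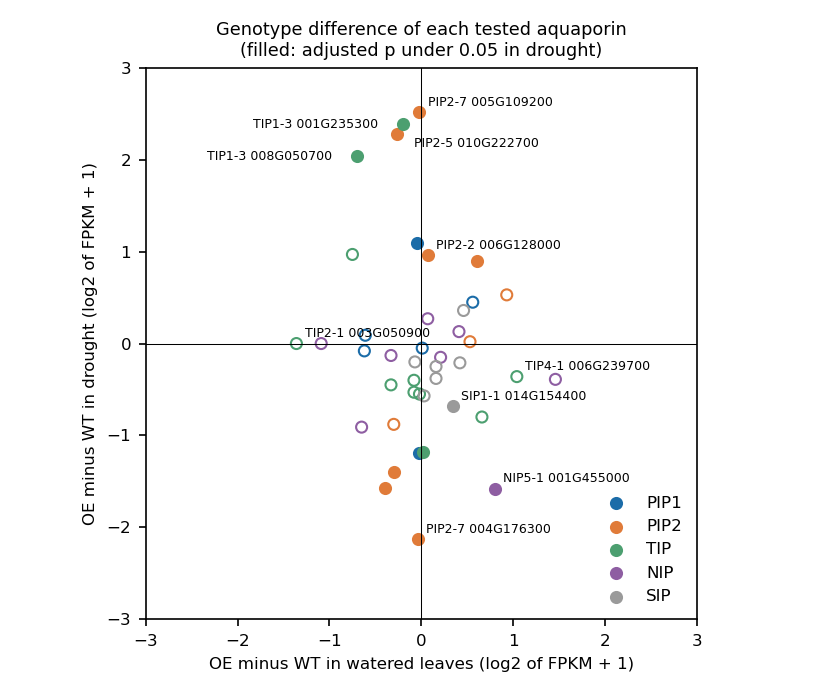
OE minus WT difference of each tested aquaporin in log2(FPKM + 1), in watered leaves (x axis) and in drought (y axis), coloured by subfamily and filled where the drought difference passed at 0.05. Named genes are those whose drought response differed between genotypes. Points spread from -2.13 to 2.52 in drought and from -1.36 to 1.46 in watered leaves.

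Genes that act on aquaporins in other plants were read from lists defined by description. SNARE proteins deliver PIPs to the plasma membrane, with syntaxin-121 binding PIP2 proteins in Arabidopsis and maize. Of 11 tested SNARE genes 5 rose and 2 fell in OE (median log2 fold change 0.39), and 7 rose and 0 fell in WT (median 0.58). Here and for the lists that follow, the shares over all tested genes were 27.7% higher and 34.9% lower in OE and 33.9% higher and 21.6% lower in WT, with medians of -0.13 in OE and 0.25 in WT. Syntaxin-121 Potri.016G068600 averaged 129 ± 40.4 FPKM in OE drought, 4.82 ± 4.01 in OE watered, 71.2 ± 15.4 in WT drought and 3.88 ± 2.36 in WT watered leaves (SD, n = 3 each). It rose by 4.68 ± 0.47 in OE (adjusted p = 5.63e-06) and by 3.98 ± 0.47 in WT (adjusted p = 3.68e-05).

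Of 9 tested genes for RMA ubiquitin ligases, which hold PIP2 proteins back in the endoplasmic reticulum in pepper and Arabidopsis, and for the translocator protein, which takes PIP2-7 to autophagic breakdown in Arabidopsis, 2 rose and 2 fell in OE (median -0.05) and 5 rose and 0 fell in WT (median 0.58), where 62.7% of all tested genes were called in OE and 55.5% in WT. Translocator protein Potri.002G206100 averaged 15.9 ± 2.12 FPKM in OE drought, 10.2 ± 4.44 in OE watered, 81.2 ± 44.6 in WT drought and 2.5 ± 0.677 in WT watered leaves (SD, n = 3 each). Its response was 0.65 ± 0.39 in OE (adjusted p = 0.168) and 4.40 ± 0.39 in WT (adjusted p = 4.68e-06), a difference of -3.76 ± 0.55 (adjusted p = 0.00307). The other tested translocator gene, Potri.014G131400, rose in both genotypes. Its response was 2.37 ± 0.28 in OE (adjusted p = 2.11e-05) and 2.18 ± 0.28 in WT (adjusted p = 7.18e-05). The difference of 0.19 ± 0.40 did not pass (adjusted p = 0.773).

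The kinases SRK2E (OST1), which phosphorylates a guard cell PIP2 in Arabidopsis, and BAK1 had 5 tested genes, of which 3 rose and 1 fell in OE (median 1.02) and 5 rose in WT (median 1.33), against 27.7% of all tested genes higher in OE and 33.9% in WT. SRK2E Potri.009G106900 averaged 19 ± 3.99 FPKM in OE drought, 28.4 ± 5.49 in OE watered, 51.9 ± 4.99 in WT drought and 20 ± 2.07 in WT watered leaves (SD, n = 3 each). It fell by 0.56 ± 0.19 in OE (adjusted p = 0.0214) and rose by 1.33 ± 0.19 in WT (adjusted p = 0.000124), a difference of -1.89 ± 0.27 (adjusted p = 0.00246). The other SRK2E gene, Potri.004G145500, did not pass in OE (-0.07 ± 0.20, adjusted p = 0.783). In WT it rose by 0.94 ± 0.20 (adjusted p = 0.00193), and the difference was -1.01 ± 0.28 (adjusted p = 0.0358). The syntaxin-121, translocator protein and SRK2E genes named here were chosen within their lists after their values were seen.

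Of 13 tested 14-3-3 genes, whose proteins bind phosphorylated PIPs in Arabidopsis, 2 rose and 3 fell in OE (median -0.03) and 5 rose and 2 fell in WT (median 0.29), no larger a share than the 62.7% of all tested genes called in OE and the 55.5% called in WT. Of 8 tested plasma membrane proton ATPases, 3 rose and 3 fell in OE (median -0.26) and 1 rose and 3 fell in WT (median -0.23). Boron transporters, which export the boron that NIPs take in as boric acid, had 7 tested genes. Of these 1 rose and 5 fell in OE (median -0.97) and 2 rose and 4 fell in WT (median -0.65). In watered leaves none of the genes on these lists passed between OE and WT.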

How the data were processed

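RNA of leaves was sequenced in 12 libraries of 4 groups, per the labels. The authors deposited FPKM values per gene with positions and UniProt descriptions; per the submitters' processing notes HISAT2 2.1.0 and Bowtie2 2.2.3 were used. The sources used here do not give the genome build or the tool that counted fragments. Per the labels' protocols the kit was NEBNext Ultra, which keeps no strand. A second deposited table with 30 of the 53 aquaporins was not used.

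For 35747 genes (100%) the FPKM were whole multiples of a per-gene step (tolerance 0.02 of a fragment), from which fragment numbers and library totals follow. Intervals and floors of 3 fragments cover counting error alone.

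Genes reaching 1 FPKM in 3 or more libraries were fitted as log2(FPKM + 1) with limma 3.58.1 in R 4.3.3 to 4 group means, 8 residual degrees of freedom and a robust prior with a trend (median prior degrees of freedom 3.79), adjusted by Benjamini-Hochberg. All groups share this spread. The fit was tested on a simulated WT drought contrast with 200 changed genes among 25373. It recovered 30% of log2 changes of 1 and 75% of log2 changes of 2, with 6 false calls. In the data 55.5% of tested genes were called in WT drought, which makes the adjusted threshold easier to pass than in the simulation. The recovery rates therefore do not carry over to that contrast. A gene that missed the threshold may still have changed. The closest replicates, OE drought 4 and 6, gave 3.69 as their chi-square per gene, where the other pairs within groups gave 11.5 to 66.4. Because 3.69 is above the 1 of sampling noise, no library was dropped as a repeat. Such a value cannot tell separate plants from separate preparations of the same plant, so these libraries may not be independent.

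Members, lists and tests were chosen with earlier results of these data known. Named genes (29) were the 2 most abundant of each subfamily, the 2 largest called changes in each direction per subfamily and genotype, and the 12 smallest adjusted p among calls between genotypes. Every other gene named was chosen after its values were seen. Alternatives were another pseudocount (0.1), no filter, median-of-ratios scaling, a log2 change of at least 1, another variance model, 2 groups alone, a replicate block, each library left out, and, added after seeing the data, voom on recovered fragments. No protein, promoter or genome sequence was used here.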

Additional observations from a re-analysis of the deposited data

Results flagged for a closer look

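For 10 aquaporins the drought response differed between OE and WT by limma's test of the difference itself, with Benjamini-Hochberg adjustment over all tested genes. A response higher in OE was found for TIP1-3 Potri.008G050700 (2.75 on the log2 scale, adjusted p = 0.00343, at most 0.0128 under any alternative run), TIP1-3 Potri.001G235300 (2.59, adjusted p = 0.00508, at most 0.043), PIP2-5 Potri.010G222700 (2.55, adjusted p = 0.00106, at most 0.00937) and PIP2-7 Potri.005G109200 (2.54, adjusted p = 0.00381, at most 0.0141). In each of these, all 3 OE drought libraries lay above all other libraries, and the call held under every alternative run. Smaller differences of the same sign were those of TIP2-1 Potri.003G050900 (1.36, adjusted p = 0.0387) and PIP2-2 Potri.006G128000 (0.89, adjusted p = 0.0342). In TIP2-1 the drought groups overlapped and the watered groups did not, and in PIP2-2 the WT drought libraries alone were low.

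A response lower in OE was found for NIP5-1 Potri.001G455000 (-2.38, adjusted p = 0.0157), PIP2-7 Potri.004G176300 (-2.09, adjusted p = 0.0421), TIP4-1 Potri.006G239700 (-1.40, adjusted p = 0.0189) and SIP1-1 Potri.014G154400 (-1.02, adjusted p = 0.0466). The TIP4-1 value rests on a group at 0 fragments, so its size depends on the pseudocount and is no bound. Most of it came from watered leaves, where OE minus WT was 1.04 (limma, adjusted p = 0.148). In drought, with both genotypes near 0, OE minus WT was -0.36 (adjusted p = 0.244). SIP1-1 had 12.6, 12.1 and 15.9 FPKM in OE drought, 18.2, 20.7 and 24.9 in OE watered, 27.2, 26 and 15 in WT drought and 15, 16 and 18.4 in WT watered leaves. The TIP4-1 call was lost without WT watered library 2 (adjusted p = 0.0531), and the NIP5-1 call held when each library in turn was left out. A fit that both calls failed is given with the other processing choices. Of the rest, 4 calls were lost under 10 or more settings each, with an adjusted p up to 0.21 for TIP2-1 Potri.003G050900, 0.0762 for PIP2-2 Potri.006G128000, 0.0916 for PIP2-7 Potri.004G176300 and 0.167 for SIP1-1.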

How the results depend on the processing

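The 88 called values of tested aquaporins were recomputed 1598 times: 1480 kept direction and call, 118 lost the threshold and 0 reversed, and 69 calls held under every alternative. Asking for a log2 change of at least 1 left 6 higher calls in WT drought in place of 10, and over all tested genes 3963 in place of 8596. Leaving out single libraries gave 9 to 11 higher and 21 to 24 lower calls in OE drought against watered, 7 to 11 and 19 to 21 in WT, 5 to 7 and 6 to 10 for OE against WT in drought, and 4 to 7 and 1 to 7 for the difference of responses. The share of all tested genes called moved too, from 56.1% to 65.9% in OE drought against watered and from 44.9% to 57.8% in WT. For OE against WT in drought it ran from 16.3% to 36.1%, and for the difference of responses from 5.76% to 26.4%. In watered leaves OE against WT had 0 to 2 lower calls, with 2 without OE watered library 3. Without that library 0.887% of all tested genes were called, 54 higher and 171 lower, in place of 25 and 10. Lower differences of responses (4) were 2 without a filter, with median-of-ratios scaling and with voom on recovered fragments, 7 without WT drought library 6, 1 without WT watered library 2, and 2 without OE drought 4 or 5, WT drought 5 or WT watered 1 or 3. Over all genes the lower calls of this difference were 2592 as reported, 4773 without WT drought library 6 and 811 without WT watered library 2. The cause of these shifts was not tested. With the replicate number as a block the difference had 4 higher and 1 lower calls, and OE against WT 6 and 6 in drought and 0 and 0 watered; in drought it ended the calls of Potri.006G128200 (adjusted p = 0.0583) and Potri.014G154400 (0.0699). Among differences of responses the block ended those of NIP5-1 Potri.001G455000 (0.0517), TIP4-1 Potri.006G239700 (0.0598), PIP2-2 Potri.006G128000 (0.0596), TIP2-1 Potri.003G050900 (0.0705) and SIP1-1 Potri.014G154400 (0.0865). Pairing was not established: same-numbered libraries' deviations correlated at -0.0542, 0.218 and 0.134 in drought and 0.0147, -0.497 and -0.0171 in watered leaves, and 3 of 12 libraries correlated best with their own number.

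Median-of-ratios scaling (size factors 0.815 to 1.24) moved the summed FPKM of all aquaporins to 6442 in OE drought, 3808 in WT drought and 4639 in WT watered, of PIP1 to 3233 in OE drought and 2336 in WT drought, and of PIP2 to 2340 in OE drought, 694 in WT drought and 1925 in WT watered leaves. TIP moved to 624 in WT watered and SIP to 116 in OE drought leaves. The watered OE to WT ratio of PIP1 was 1.05 as deposited and 0.971 with it. Over all genes, higher and lower calls of OE against WT in drought were 2333 and 5122 as reported, 3838 and 2521 with median-of-ratios scaling and 1475 and 1822 on the compared groups alone. Differences of responses were 1151 and 2592, 2010 and 1025 with that scaling, 738 and 2344 with voom and 728 and 1341 with the block. Watered OE against WT gave 25 and 10, 10 and 5 with voom, 3 and 1 with the block and 1 and 1 on the compared groups alone. WT drought gave 8596 and 5492, and 5685 and 6908 with that scaling.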

Other observations

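A further gene of the same protein superfamily lies outside the naming rule because its description reads Nodulin-26, the soybean protein that gave NIPs their name. Potri.002G097000 had 0.68, 0.406 and 1.28 FPKM in OE drought, 3.96, 4.81 and 4.33 in OE watered, 2.23, 1.51 and 1.27 in WT drought and 2.01, 2.18 and 3.41 in WT watered leaves. OE watered was high, OE drought low and the WT groups overlapped. limma gave a drought response of -1.61 ± 0.23 in OE (adjusted p = 7.98e-05) and -0.40 ± 0.23 in WT (adjusted p = 0.159), with a difference of -1.21 ± 0.32 (adjusted p = 0.0313).

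Guard cell markers, among them channels that open and close stomata, did not share the decline of mesophyll, xylem and phloem markers. Of 6 tested, 3 rose and 2 fell in both OE and WT, and their summed FPKM ranged from 87.4 to 105 in OE drought, 62 to 97.4 in OE watered, 104 to 134 in WT drought and 65.7 to 78.7 in WT watered leaves. Epidermis markers, HD-ZIP regulators of the surface layer, fell for 3 of 3 tested genes in OE and 0 of 3 in WT. Their sums ranged from 20.4 to 47.9 FPKM in OE drought, 83.2 to 101 in OE watered, 78.5 to 85.7 in WT drought and 74.7 to 81.1 in WT watered leaves.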
